A study of Mus musculus with 13 samples.

Results

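Peaks of H3K27ac were described at 9 genes that are read as outputs of TGF-β and BMP signalling, namely Id1, Id2, Id3, Id4, Smad6, Smad7, Skil, Tgfbi and Inhba, out of 21897 protein-coding genes with a symbol of their own in the GENCODE M21 annotation of mm10. The antibody of this ChIP-seq recognised histone H3 acetylated at lysine 27, which marks promoters and enhancers in use. The genes were chosen by name, and each was read in a window of its body plus 20 kb on each side. In all, 163 of the 256200 deposited peaks fell in these windows. The lists came from 9 mouse melanoma cell lines, with 1 H3K27ac ChIP-seq list for each line. The lines were established from melanomas of Tyr::NRAS Q61K mice heterozygous for Cdkn2a, in which the NRAS transgene was driven by the tyrosinase promoter, and all carried floxed Cdh1, the E-cadherin gene. The ΔEcad lines also carried Tyr::Cre, which deletes Cdh1 in melanocytes and their precursors, and Cre was absent from the Ecad lines. The male Ecad lines were Ma_1007 and Ma_1181, the female Ecad lines Ma_1014 and Ma_1039, the male ΔEcad lines Ma_1062 and Ma_1456, and the ΔEcad lines from females Ma_1057, Ma_1064 and Ma_1069. All were grown in F12 medium with serum, and no treatment was given. The labels do not say whether lines of a group came from separate animals, so the tests measure the spread between these lines.

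Ligands of the TGF-β family bind pairs of type I and type II receptors, which phosphorylate SMAD transcription factors. Signals of the TGF-β and activin branch run through SMAD2 and SMAD3, and signals of the BMP branch through SMAD1, SMAD5 and SMAD9, in both cases with SMAD4. The ID proteins are helix-loop-helix factors without a DNA-binding domain that hold other helix-loop-helix factors off DNA, and Id1, Id2 and Id3 are classical BMP targets. SMAD6 and SMAD7 are inhibitory SMADs that feed back on the receptors, and SKIL (SnoN) is a repressor bound to SMAD complexes. Tgfbi encodes a secreted matrix protein and Inhba the βA subunit of activins and inhibins. The label of the set is a statement about function that peak lists cannot check, since they hold neither RNA nor SMAD binding.

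The lists held between 20741 peaks (Ma_1069) and 41663 peaks (Ma_1007) and covered between 29.5 and 67.2 Mb, and the read depth behind them is unknown. A gene without a peak is therefore a gene without a peak past the caller's threshold. Of 7 melanocyte and melanoma markers, 6 had a promoter peak in all 9 lists and Tyrp1 in 6, as had Actb and Gapdh in all 9. None of 3 immune and 3 endothelial markers had a promoter peak in any list, while Krt10 of 3 keratinocyte markers had it in 5 lists and Pdgfra of 6 fibroblast markers in 1. Over all genes, covered length was lower in female ΔEcad lists, with a median difference of −0.86 kb per gene against the other 6 lists. Because of this, each difference tested below by covered length was also tested as bp of the window per Mb covered by the whole list. Calls lost on that scale are named. The scaling divides by the length of the list but did not remove the shift over all genes. By the scaled mean, 70.9% of genes were still lower in female ΔEcad lists, 60.9% in ΔEcad against Ecad lists and 65.3% in female against male lists.

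Promoter calls asked for a peak no more than 1 kb from any annotated transcription start of the gene. Id2, Smad7 and Skil had a called promoter in all 9 lists, as had 21.0% of all protein-coding genes. Id1 and Id3 were called in 8 lists, all but Ma_1069, and Id4 in 8, all but Ma_1014. Of all protein-coding genes, 5.43% were called in 8 lists. The Smad6 promoter was called in 5 lists, as were 3.30% of all genes. Tgfbi and Inhba were called in none, as were 47.1% of all genes, and Inhba had no peak anywhere in its window, as had 24.7% of genes. Line by line, 7 of the 9 promoters were called in Ma_1007, Ma_1181, Ma_1456 and Ma_1064, 6 in Ma_1014, Ma_1039, Ma_1062 and Ma_1057, and 4 in Ma_1069, the shortest list. The share of all genes called in each list was not counted, so these counts cannot be told from a trait of the whole list. Peaks that overlapped or touched across lists were merged into 28 elements, of which 5 were present in all 9 lists and 9 in a single list. Every element present in all 9 lists lay over or within 1 kb of an annotated start, and none of the 8 upstream, 6 intronic and 4 downstream elements was among them. Elements outside these windows were not counted, so this cannot be called particular to the 9 genes. The map of peaks by line shows the windows of Id1, Id3, Id4, Skil and Smad7.

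**Figure D1:**
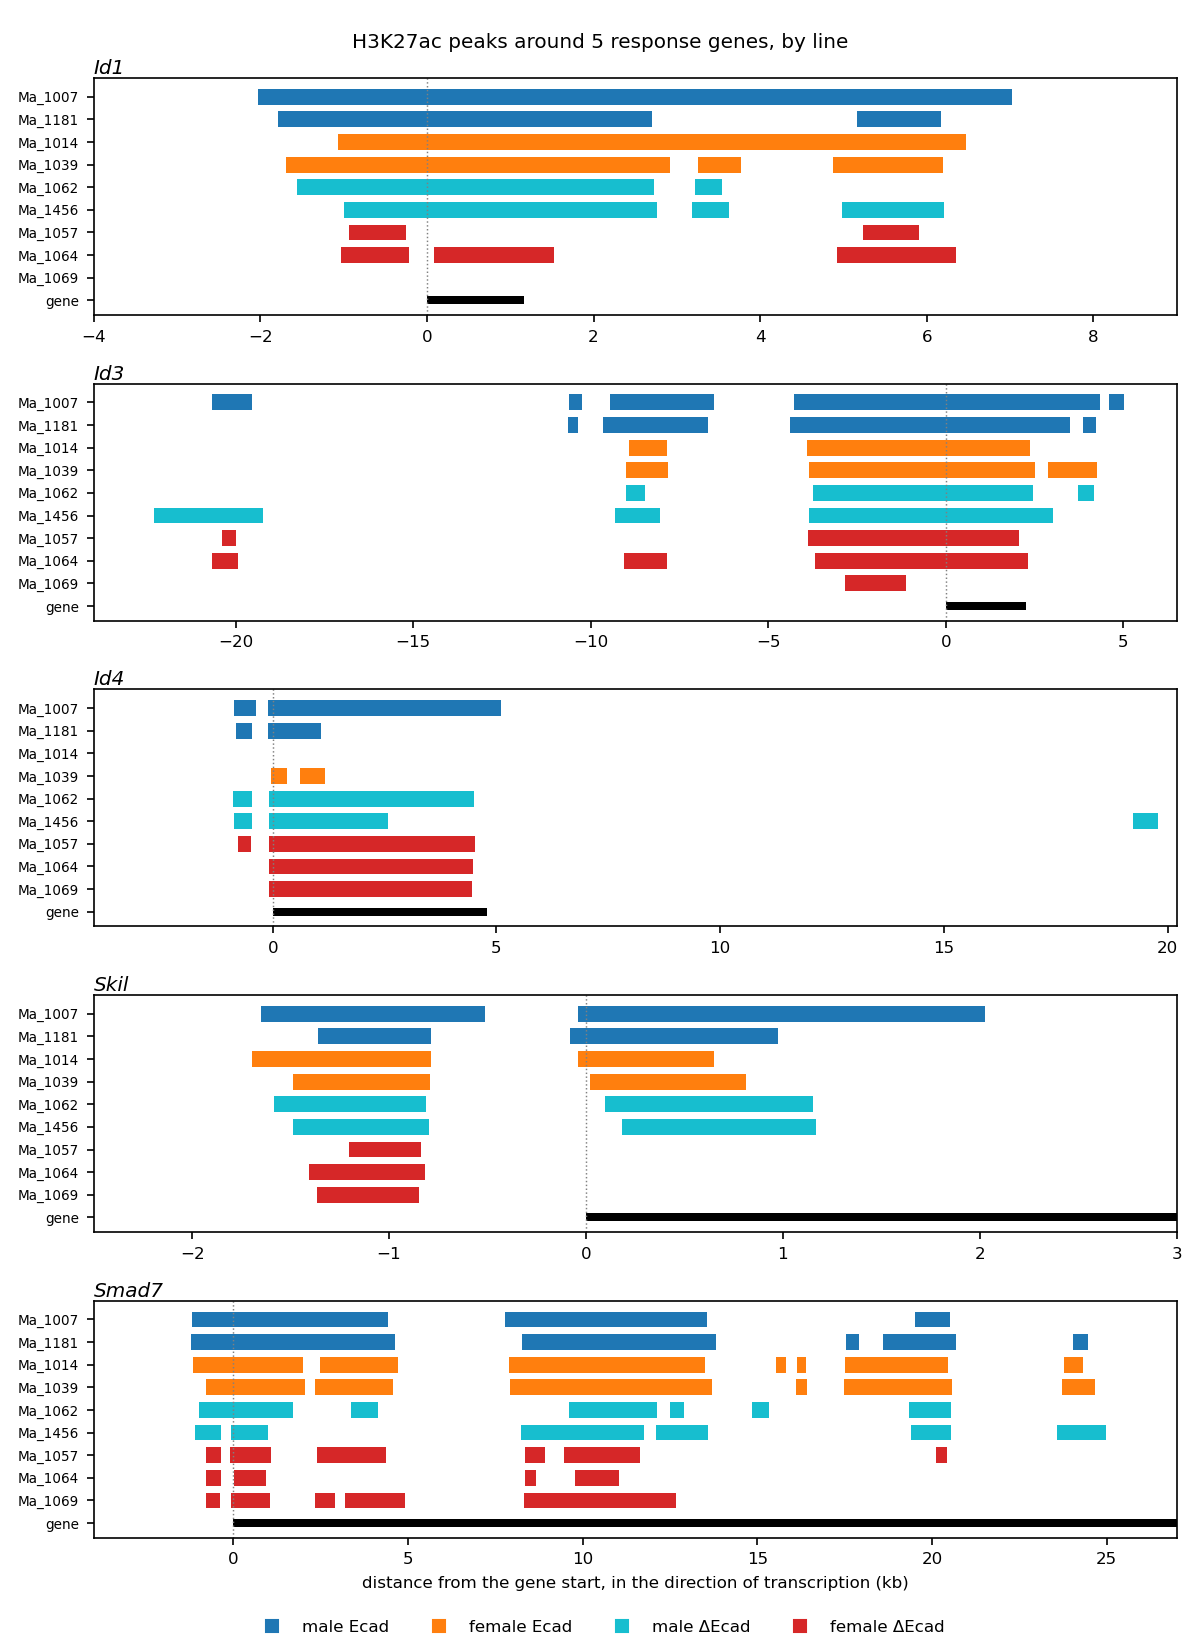
Peaks of each of the 9 lists (rows, coloured by group) around Id1, Id3, Id4, Skil and Smad7, plotted against distance from the gene start in kb in the direction of transcription, with the gene body as a black bar that is clipped at the right edge for Skil and Smad7. Peaks over the Id1 start and just downstream of the Skil start are missing from the 3 female ΔEcad lists, and the body of Id4 is covered over more than 4 kb in all 3 of them.

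Id1 (chr2:152736251-152737410, plus strand, 1.16 kb long) is an inhibitor of differentiation factors and a direct BMP target. Its window held 1 element, chr2:152734222-152743273, which ran from 2.03 kb upstream of the start to 7.02 kb downstream. Covered length was 9.05 kb in Ma_1007 and 5.50 kb in Ma_1181, the male Ecad lines, and 7.54 and 6.44 kb in the female Ecad lines Ma_1014 and Ma_1039. In the male ΔEcad lines Ma_1062 and Ma_1456 it was 4.61 and 5.43 kb, and in the female ΔEcad lists Ma_1057, Ma_1064 and Ma_1069 it was 1.36, 3.68 and 0 kb. The 3 female ΔEcad lists were thus the lowest of the 9, as at 23.4% of genes with a peak. All 5 ΔEcad lists lay below all 4 Ecad lists, as at 6.72% of them, and the share with both orders was not counted. The shape differed as well as the length. In each of the 6 other lists 1 peak ran across the start, whereas in Ma_1057 the peak upstream of the start ended 0.249 kb before it and in Ma_1064 1 peak ended 0.219 kb before it and the next began 0.09 kb after it. None (0 of 3) of the female ΔEcad lists had the start itself under a peak, against 6 of 6 others (two-sided p = 0.0119 by Fisher's exact test, adjusted p = 0.149 over all genes whose start was covered in 1 to 8 lists), a split shared by 7.97% of those genes. Peaks near the start were strong where they were called, with the strongest peak within 1 kb between percentile 80.6 (Ma_1057) and percentile 99.8 (Ma_1007) of its own list by −log10 q.

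Id2 (chr12:25093799-25097140, minus strand) encodes an inhibitor of E-proteins. It had an element in all 9 lists, chr12:25092420-25102181, which reached from 5.04 kb upstream of the annotated gene start to 4.72 kb downstream. A second element 12.8 to 14.1 kb upstream was found in Ma_1007 alone. Covered length was 11.1 and 8.62 kb in the male Ecad lines Ma_1007 and Ma_1181, 9.22 and 8.39 kb in the female Ecad lines Ma_1014 and Ma_1039, and 7.68 and 7.36 kb in the male ΔEcad lines Ma_1062 and Ma_1456. The female ΔEcad lists Ma_1057, Ma_1064 and Ma_1069 had 5.90, 5.31 and 3.75 kb. As for Id1, the female ΔEcad values were the 3 lowest and the Ecad values the 4 highest, orders found at 23.4% and 6.72% of genes with a peak. A single peak spanned the gene in all 4 Ecad lists, while the same stretch was split into 2 peaks in Ma_1062, 3 in Ma_1456, Ma_1057 and Ma_1064, and 4 in Ma_1069. The strongest promoter peak stood between percentile 90.5 and percentile 99.8 in 8 lists and at percentile 51.0 in Ma_1069.

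Id3 (chr4:136143497-136145755, plus strand) encodes another ID protein induced by BMP. The strongest peak within 1 kb of a start stood between percentile 97.5 and percentile 99.8 in 8 lists, the highest of the 9 genes in 7 of them and just below Id1 in Ma_1007. In Ma_1069, where Id3 was not called, Smad7 ranked highest. The RefSeq promoter, chr4:136143572-136143871 on the plus strand, is shown for its pair of CAGAC matches, the core of the element bound by SMAD3 and SMAD4, which stand in capitals and of which the other reads GTCTG on this strand. CAGAC was found on either strand in 49.6% of the 32851 RefSeq promoters of this length, so that its presence is common.
Id3 promoter: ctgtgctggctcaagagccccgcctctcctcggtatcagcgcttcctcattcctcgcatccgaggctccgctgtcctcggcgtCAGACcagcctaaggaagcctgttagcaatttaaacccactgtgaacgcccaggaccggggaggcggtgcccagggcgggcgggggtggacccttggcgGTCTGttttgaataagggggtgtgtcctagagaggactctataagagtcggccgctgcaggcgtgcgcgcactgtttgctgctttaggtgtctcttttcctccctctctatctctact
A peak lay over this stretch in 8 lists, all but Ma_1069. In Ma_1069 the only peak of the window lay 1.13 to 2.84 kb upstream of the annotated gene start at percentile 53.8, which is why its promoter was not called. Covered length in the Id3 window was 12.8 and 11.5 kb in the male Ecad lines Ma_1007 and Ma_1181, 7.34 and 8.93 kb in the female Ecad lines Ma_1014 and Ma_1039, and 7.20 and 8.91 kb in the male ΔEcad lines Ma_1062 and Ma_1456. The female ΔEcad lists Ma_1057, Ma_1064 and Ma_1069 had 5.94, 7.29 and 1.71 kb, and Ma_1064 overlapped the other groups. An upstream element, chr4:136133840-136136961 (6.54 to 9.66 kb before the start), was present in 7 lists and missing from Ma_1057 and Ma_1069. It lies within 1 kb of the start of the annotated transcript Gm26001, so that its link to Id3 rests on distance alone.

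Id4 (chr13:48261228-48266026, plus strand) differed from the other ID genes in its order of lines. Covered length was 5.69 and 1.54 kb in the male Ecad lines Ma_1007 and Ma_1181, 0 and 0.914 kb in the female Ecad lines Ma_1014 and Ma_1039, and 5.02 and 3.62 kb in the male ΔEcad lines Ma_1062 and Ma_1456. In the female ΔEcad lists Ma_1057, Ma_1064 and Ma_1069 it was 4.90, 4.56 and 4.54 kb. All 3 female ΔEcad lists thus lay above both female Ecad lists, as at 5.44% of genes with a peak, while the male Ecad line Ma_1007 was the highest of all 9. The element over the start and body, chr13:48261125-48266328, was present in 8 lists. Within it a peak ran over at least 4 kb in Ma_1007, Ma_1062 and the 3 female ΔEcad lists, ended 2.58 kb after the start in Ma_1456 and 1.08 kb after it in Ma_1181, and was broken into 2 short peaks in Ma_1039. The starts of A330033J07Rik and Gm49291 lie within 1 kb of this element, and H3K27ac does not tell the strand. The strongest promoter peak stood between percentile 39.2 in Ma_1039 and percentile 92.7 in Ma_1057. The RefSeq promoter, chr13:48260866-48261165 on the plus strand, is shown as that of the member with the most CG dinucleotides of the 6 whose promoter was in the RefSeq table, 39 against a median of 7 over all RefSeq promoters. The capitals mark GGCGCC, a GC-rich site bound by the BMP SMADs, which 11.9% of RefSeq promoters hold on either strand.
Id4 promoter: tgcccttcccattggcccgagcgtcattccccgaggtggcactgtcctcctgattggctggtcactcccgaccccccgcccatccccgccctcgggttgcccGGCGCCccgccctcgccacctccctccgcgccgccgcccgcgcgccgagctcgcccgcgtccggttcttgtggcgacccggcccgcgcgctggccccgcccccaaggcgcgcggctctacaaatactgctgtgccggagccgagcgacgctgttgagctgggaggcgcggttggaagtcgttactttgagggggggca
Peaks overlapped this stretch in 7 lists, all but Ma_1014 and Ma_1039, the female Ecad lines. The overlap was confined to its end, where the peaks of the 7 lists began 0.103 to 0.077 kb before the gene start. The peak of Ma_1039 began 0.048 kb before the start, just past the stretch, and its promoter was called. The split of Ma_1039 from the 7 lists thus turned on the edges of peaks. Id1, Skil and Smad7 had no entry in the RefSeq promoter table.

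Skil (chr3:31095058-31122577, plus strand) held 2 elements, and element 2 had no peak in the female ΔEcad lists. Element 1, chr3:31093360-31094543, lay 0.515 to 1.70 kb upstream of the gene start and was present in all 9 lists. Element 2, chr3:31094975-31097085, ran from 0.083 kb before the start to 2.03 kb after it and was present in all 6 other lists and in 0 of 3 female ΔEcad lists. The share of elements over all genes with this split was not counted. By covered length, every female ΔEcad list lay below every other list at 23.4% of genes. The stretches below are the middle of the bases that the peaks of every calling list shared, 357 bases for element 1 and 472 bases for element 2, so that the part of Skil that kept the mark can be read beside the part that had no peak in the female ΔEcad lines. Both were read from GRCm38 on the plus strand. The capitals mark GGCGCC and CAGAC on either strand.
Skil element 1 (chr3:31093884-31094183, kept in all 9 lists): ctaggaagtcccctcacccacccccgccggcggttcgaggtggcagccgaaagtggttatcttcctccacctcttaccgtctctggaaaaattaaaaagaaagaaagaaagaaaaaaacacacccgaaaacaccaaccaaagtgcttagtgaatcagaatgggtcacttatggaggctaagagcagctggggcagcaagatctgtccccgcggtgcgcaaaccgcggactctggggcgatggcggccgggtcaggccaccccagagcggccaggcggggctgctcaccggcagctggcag
Skil element 2 (chr3:31095325-31095624, no peak in female ΔEcad lists): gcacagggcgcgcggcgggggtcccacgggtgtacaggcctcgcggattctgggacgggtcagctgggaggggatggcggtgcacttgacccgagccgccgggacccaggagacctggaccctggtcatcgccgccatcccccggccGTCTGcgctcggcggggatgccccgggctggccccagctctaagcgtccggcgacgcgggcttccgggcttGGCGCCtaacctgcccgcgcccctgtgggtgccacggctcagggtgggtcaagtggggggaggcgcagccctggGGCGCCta
The upstream stretch held 18 CG dinucleotides and none of the motifs searched. The downstream stretch held 32 CG dinucleotides, 2 matches to GGCGCC and 1 to CAGAC. These letters were not tested for any part in the split. Covered length in the Skil window was 3.20 and 1.63 kb in the male Ecad lines Ma_1007 and Ma_1181, 1.60 and 1.48 kb in the female Ecad lines Ma_1014 and Ma_1039, and 1.83 and 1.68 kb in the male ΔEcad lines Ma_1062 and Ma_1456. It was 0.364, 0.588 and 0.520 kb in the female ΔEcad lists of Ma_1057, Ma_1064 and Ma_1069. These lists did not overlap with any other list, and Ma_1007 stood well above the rest. Counting only peaks over an annotated start gave another split, with 4 of 4 Ecad and 0 of 5 ΔEcad lists (two-sided p = 0.00794 by Fisher's exact test, adjusted p = 0.276 over all genes whose start was covered in 1 to 8 lists), a split shared by 2.88% of those genes. The peak of element 2 began between 0.083 kb before and 0.023 kb after the gene start in the Ecad lines, where another annotated start follows shortly downstream, and 0.095 kb (Ma_1062) and 0.181 kb (Ma_1456) after it in the male ΔEcad lines, so this second split turned on the edges of peaks. The strongest peak within 1 kb of a start stood between percentile 65.0 and percentile 93.4 in the 6 other lists and at percentiles 54.0, 68.7 and 47.8 in Ma_1057, Ma_1064 and Ma_1069. In Ma_1014, Ma_1039, Ma_1062 and Ma_1456 that peak was the one of element 1. Element 2 itself stood at percentile 93.4 in Ma_1007 and 65.0 in Ma_1181. It stood lower, at percentiles 45.7, 36.1, 33.3 and 39.5, in Ma_1014, Ma_1039, Ma_1062 and Ma_1456.

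Smad6 (chr9:63953076-64022059, minus strand), the inhibitory SMAD that acts mainly on the BMP branch, was marked weakly. Its promoter was called in Ma_1007, Ma_1181, Ma_1014, Ma_1456 and Ma_1064, so in both male Ecad lines and in 1 line of each other group. Covered length was 1.92 and 1.17 kb in the male Ecad lines, 2.74 kb in the female Ecad line Ma_1014 and 0 in Ma_1039, 0 in the male ΔEcad line Ma_1062 and 0.932 kb in Ma_1456, and 0.353 kb in the female ΔEcad line Ma_1064 with 0 in Ma_1057 and Ma_1069. The groups overlapped, and the strongest promoter peak reached percentile 75.0 in Ma_1014 and lay between percentile 41.5 and percentile 69.1 in the other 4 lists. The promoter, chr9:64022010-64022309 on the minus strand from RefSeq, is shown because it holds GTCTAGAC, the palindrome to which SMAD3 and SMAD4 bind, in capitals. Of all RefSeq promoters, 0.213% hold these 8 letters.
Smad6 promoter: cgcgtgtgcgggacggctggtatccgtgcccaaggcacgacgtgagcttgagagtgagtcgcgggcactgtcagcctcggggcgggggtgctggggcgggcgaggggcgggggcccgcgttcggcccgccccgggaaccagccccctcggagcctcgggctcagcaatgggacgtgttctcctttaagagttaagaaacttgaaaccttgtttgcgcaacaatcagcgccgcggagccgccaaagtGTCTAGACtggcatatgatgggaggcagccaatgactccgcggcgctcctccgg
Peaks overlapped this stretch only in Ma_1007 and Ma_1014. In Ma_1181 and Ma_1456 peaks stood on both sides, ending 0.26 and 0.29 kb upstream of the gene start and beginning 0.07 and 0.097 kb downstream, and in Ma_1064 there was the downstream peak alone.

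Smad7 (chr18:75367529-75395935, plus strand), the inhibitory SMAD of both branches, held 7 elements, more than any other of the 9 genes. The element over the start (1.22 kb upstream to 4.90 kb downstream) and a second element 7.77 to 13.8 kb downstream, within 1 kb of an internal start, were present in all 9 lists. Between 14.8 and 25.0 kb downstream lay 5 intronic elements. The most frequent of them, 17.5 to 20.7 kb downstream, was present in all 6 other lists and in Ma_1057, and missing from Ma_1064 and Ma_1069. Covered length was 12.4 and 14.3 kb in the male Ecad lines Ma_1007 and Ma_1181 and 14.9 and 15.2 kb in the female Ecad lines Ma_1014 and Ma_1039. It was 8.07 and 9.39 kb in the male ΔEcad lines Ma_1062 and Ma_1456, and 6.68, 2.93 and 8.20 kb in the female ΔEcad lists Ma_1057, Ma_1064 and Ma_1069. Every Ecad list lay above every ΔEcad list, in either sex, as at 6.72% of genes with a peak. The longest list, Ma_1007, was the lowest of the Ecad lists. Among ΔEcad lists the male and female values overlapped. Near a start the strongest peak held a steady rank, from percentile 82.2 in Ma_1064 to percentile 94.6 in Ma_1181. In Ma_1456 and the 3 female ΔEcad lists the peak at the gene start was split in the same place, with the upstream part ending between 0.353 and 0.372 kb before the start.

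Tgfbi (chr13:56609523-56639562, plus strand) had no promoter peak but carried distal elements. Covered length was 3.11 and 7.97 kb in the male Ecad lines Ma_1007 and Ma_1181, 0.491 kb in the female Ecad line Ma_1014, 1.44 and 1.83 kb in the female ΔEcad lists Ma_1057 and Ma_1069, and 0 in Ma_1039, Ma_1062, Ma_1456 and Ma_1064. Both male Ecad lines thus carried more than any other line and both male ΔEcad lines none. An element 6.89 to 9.95 kb upstream was found in Ma_1007, Ma_1181, Ma_1057 and Ma_1069 and reached percentile 87.9 in Ma_1181. Another, 1.94 to 3.08 kb upstream, was found in Ma_1007, Ma_1181, Ma_1014 and Ma_1069. The other 4 elements were found in Ma_1181 alone.

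Inhba (chr13:16011851-16031621, plus strand) had 0 kb covered in all 9 lists. Its RefSeq promoter, chr13:16011601-16011900 on the plus strand, is given beside those of marked members as the one without a peak anywhere near. It held 7 CG dinucleotides, against 19 in the Id3, 31 in the Smad6 and 39 in the Id4 promoter, and none of the motifs searched.
Inhba promoter: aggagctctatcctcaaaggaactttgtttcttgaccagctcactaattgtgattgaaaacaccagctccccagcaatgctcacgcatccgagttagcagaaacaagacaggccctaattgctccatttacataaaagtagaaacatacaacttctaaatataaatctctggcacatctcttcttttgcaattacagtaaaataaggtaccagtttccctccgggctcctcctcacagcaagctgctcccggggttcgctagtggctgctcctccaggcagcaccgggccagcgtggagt
A promoter rich in CG was not always marked, however. The Tgfbi promoter held 22 CG dinucleotides, 1 GGCGCC and 2 CAGAC, with no peak over it in any list. The Id2 promoter held 21 CG dinucleotides and 1 GGCGCC and lay under a peak in 8 lists.

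**Figure D2:**
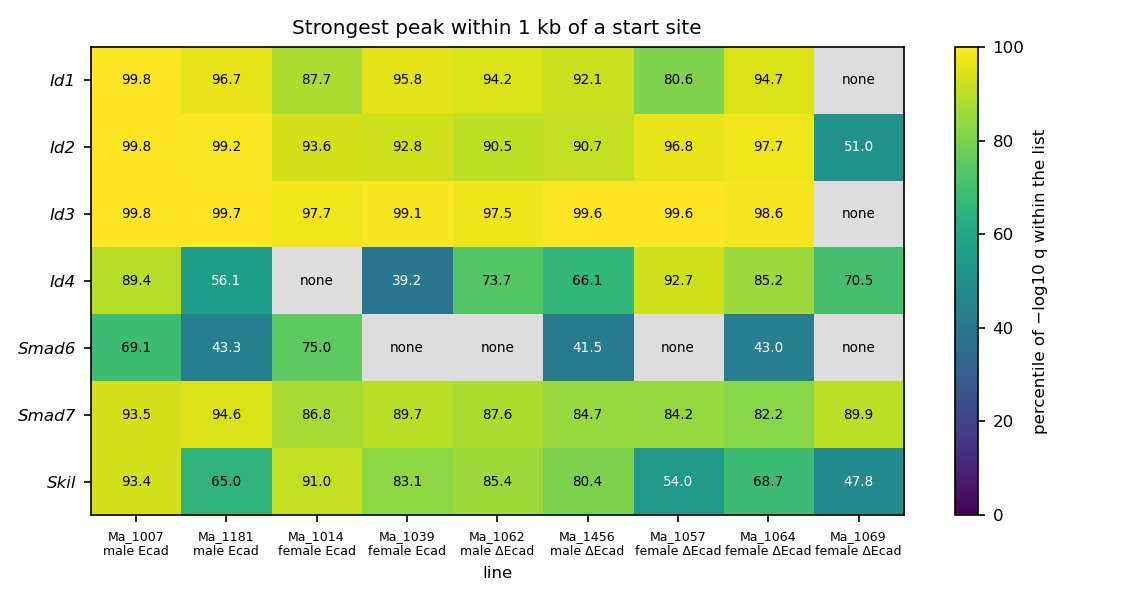
Percentile, within its own list, of the strongest peak within 1 kb of a start site by −log10 q, for 7 genes (rows) and 9 lines (columns), where "none" marks a promoter that was not called and Tgfbi and Inhba are left out because they were called in no list. Id3 stands between 97.5 and 99.8 in 8 lines, while Smad6 is called in 5 lines and stays at or below 75.0.

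To ask whether female ΔEcad lines differ at these genes from all other lines, mean covered length was compared between the 3 female ΔEcad and the 6 other lists. The test was an exact permutation test, two-sided, over the 84 choices of 3 lists, for all 16483 genes with a peak in the window in at least 1 list. Id1, Id2, Id3, Smad7 and Skil were covered over a shorter length in female ΔEcad lists at an unadjusted exact p under 0.05, so 5 of the 8 members with a peak, where 26.7% of all genes tested were lower by the same rule. Id1 covered 1.68 ± 1.86 kb (SD, n = 3) against 6.43 ± 1.63 kb (SD, n = 6), a difference of −4.75 kb (exact permutation p = 0.0119). The difference was −3.74 kb for Id2, from 4.99 ± 1.11 against 8.73 ± 1.33 kb, and −1.42 kb for Skil, from 0.491 ± 0.115 against 1.91 ± 0.646 kb, with the same exact permutation p = 0.0119, the smallest that 84 choices allow. For these 3 genes every female ΔEcad list lay below every other list, as for 23.4% of genes. Smad7 differed by −6.44 kb (exact permutation p = 0.0357) and Id3 by −4.46 kb (exact permutation p = 0.0476), with overlapping groups. Id4 had 4.67 ± 0.203 kb in female ΔEcad and 2.80 ± 2.32 kb in the other lists, a difference of 1.87 kb (exact permutation p = 0.274). The difference was −1.01 kb for Smad6 (exact permutation p = 0.214) and −0.836 kb for Tgfbi (exact permutation p = 0.810). The median difference of the 8 members was −2.58 kb, beside −0.858 kb over all genes tested. These medians were not matched for covered length, and a gene covered over a longer length can differ by more kb. By mean covered length over the 9 lists, Smad7, Id3, Id2, Id1 and Id4 stood at percentiles 94.1, 90.3, 89.2, 78.8 and 68.1 of the genes tested. Tgfbi, Skil and Smad6 stood at percentiles 43.9, 40.1 and 26.3. After Benjamini-Hochberg adjustment of the exact permutation p-values over all genes tested, 0 genes stayed under 0.05 (4393 lower and 243 higher, or 1.47%, before adjustment), and the adjusted p of the 5 members lay between 0.0875 and 0.169. With Ma_1007, Ma_1181, Ma_1039, Ma_1456 or Ma_1057 left out in turn, 3 members were called each time, namely Id1, Id2 and Skil. Id3 also lost its call without Ma_1069 (−2.83 kb, exact permutation p = 0.107), and Smad7 without Ma_1064 (−4.94 kb, exact permutation p = 0.107) or Ma_1014 (−5.92 kb, exact permutation p = 0.0536).

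Scaled by the length of the list, 3 members were lower and 1 was higher in female ΔEcad lists. Id1 stood at 44.3 against 135 bp per Mb of list and Skil at 14.4 against 39.9, both with an exact permutation p = 0.0119, and Id2 at 145 against 187 bp per Mb (exact permutation p = 0.0476). By this scale 14.6% of all genes were lower. Id4 was higher, at 138 ± 19.95 (SD, n = 3) against 58.8 ± 49.4 bp per Mb (SD, n = 6, exact permutation p = 0.0476), as were 5.34% of genes. Id3 (138.7 against 201 bp per Mb, exact permutation p = 0.131) and Smad7 (182 against 267 bp per Mb, exact permutation p = 0.179) did not pass. Actb, which every cell uses, was also lower by covered length (−3.40 kb, exact permutation p = 0.0119) and did not pass by the scaled measure (exact permutation p = 0.143), while Gapdh, the other such gene read here, passed by neither (−2.26 kb, exact permutation p = 0.333, and scaled p = 0.774). By promoter calls only Smad6, called in 5 lists, could have passed Fisher's exact test, and it did not (p = 0.524). Members called in 9, 8 or 0 lists could reach no p under 0.05 by that test, so they say nothing here. Of the 6971 genes called in 1 to 8 lists, 14.1% passed.

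**Figure D3:**
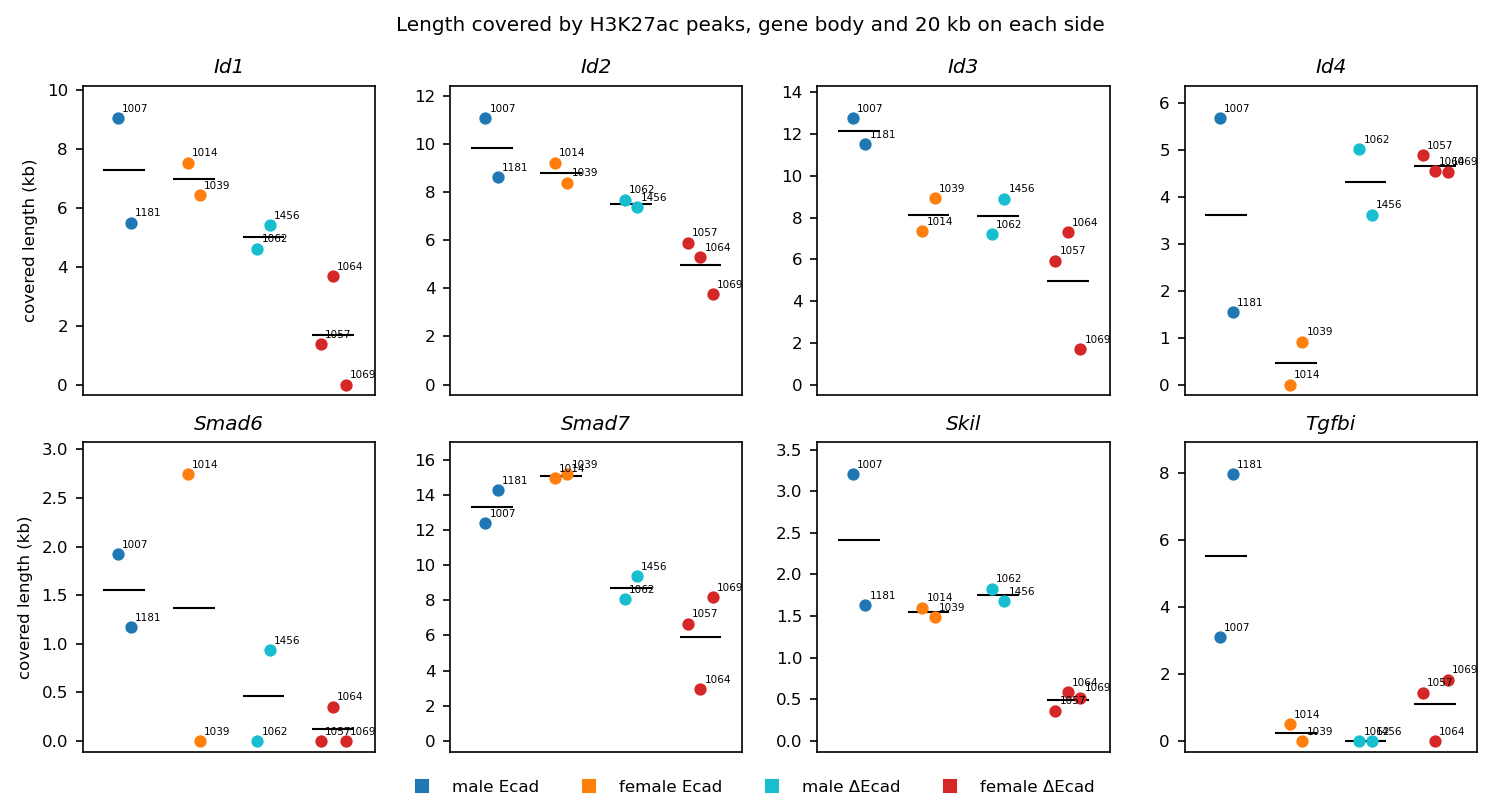
Length in kb of each gene's window (body and 20 kb on each side) covered by H3K27ac peaks, for the 8 genes with any peak, with 1 point for each line labelled by its number, coloured by group, and a black bar at the group mean (vertical axes differ and start just below 0). The female ΔEcad points are the 3 lowest for Id1, Id2 and Skil, as at 23.4% of genes. The Smad7 points of all 5 ΔEcad lines lie below those of all 4 Ecad lines, as at 6.72% of genes.

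**Figure D4:**
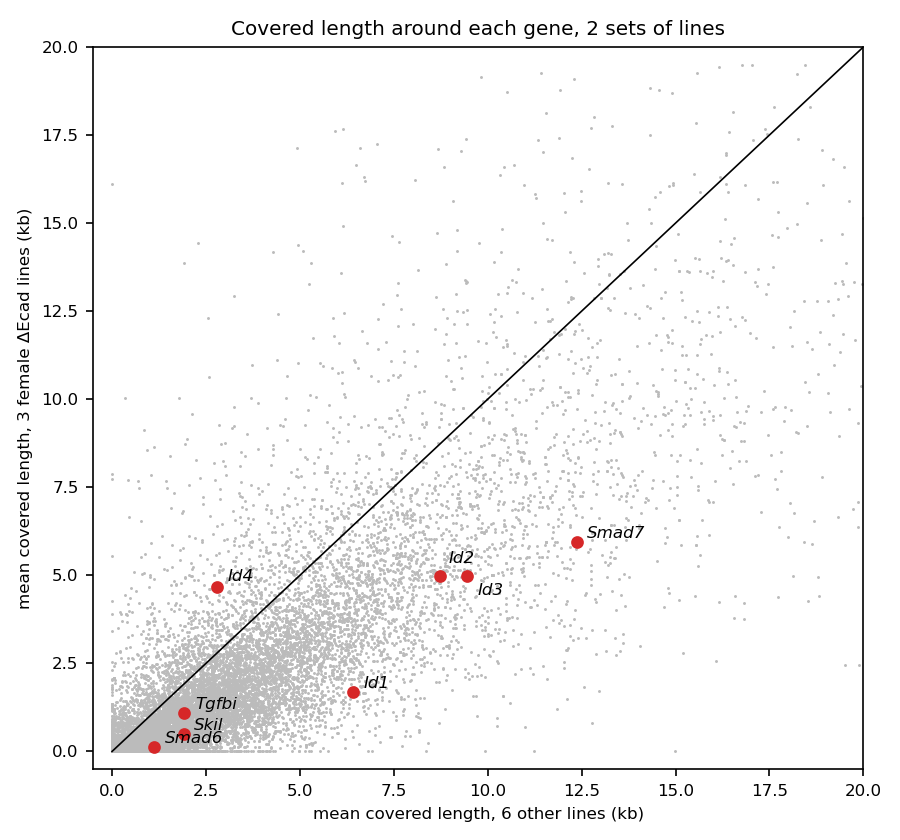
Mean covered length in kb in the 3 female ΔEcad lines (vertical) against the 6 other lines (horizontal) for every gene tested (grey points, 296 beyond the plotted 20 kb not shown), with the 8 members that have a peak in red and the line of equality. Of all genes tested, 84.5% lie below the line, as do 7 of the 8 members, and Id4 lies above it.

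The genotypes were compared over both sexes, 5 ΔEcad against 4 Ecad lists, with 126 choices and a smallest exact p of 0.00794. Smad7 had 7.05 ± 2.50 kb covered in ΔEcad (SD, n = 5) and 14.2 ± 1.27 kb in Ecad lists (SD, n = 4), a difference of −7.14 kb (exact permutation p = 0.00794). Id1 differed by −4.12 kb and Id2 by −3.33 kb (exact permutation p = 0.0159 for each), and Id3 by −3.93 kb (exact permutation p = 0.0397). These 4 of 8 members compare with 17.7% of all genes lower by that rule. At Id1, Id2 and Smad7 every ΔEcad list lay below every Ecad list, as at 6.72% of genes. Id4 was 2.49 kb longer in ΔEcad lists (exact permutation p = 0.0873), Smad6 differed by −1.20 kb (exact permutation p = 0.0952), Skil by −0.985 kb (exact permutation p = 0.119) and Tgfbi by −2.24 kb (exact permutation p = 0.198). The median difference was −2.78 kb over the members and −0.631 kb over all genes, again not matched for covered length. Scaled by list length, Id1 stayed lower (73.9 against 144 bp per Mb, exact permutation p = 0.0238), as did 8.09% of genes, and Id4 was higher (125 against 35.6 bp per Mb, exact permutation p = 0.0238), as were 1.89%. Smad7 then had 192 against 298 bp per Mb (exact permutation p = 0.0714), and Id2 (exact permutation p = 0.135) and Id3 (exact permutation p = 0.341) did not pass either. On promoter calls Smad6 was again the only member that could have passed Fisher's exact test, and it did not (p = 0.524). Of the genes called in 1 to 8 lists, 9.48% passed. The adjusted p of the 4 members called by covered length lay between 0.209 and 0.264 (Benjamini-Hochberg over the exact permutation p-values of all genes, 0 genes under 0.05 against 2922 lower before adjustment). The Id3 call held without Ma_1456 and was lost when any of the 8 other lines was left out. Without Ma_1007 the members called were Id2 and Smad7 (lower) and Id4 (higher), without Ma_1014 only Id2 and Smad7 were called, and without both Ma_1007 and Ma_1069 only Smad7 (lower) and Id4 (higher).

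Within each sex the lists were too few for a test, since 10 choices among females and 6 among males allow no p under 0.1 and 0.167. In females, ΔEcad lists had less covered length than Ecad lists at Id1 (−5.31 kb), Id2 (−3.82 kb), Id3 (−3.16 kb), Smad7 (−9.13 kb) and Skil (−1.05 kb), each without overlap, and more at Id4 (4.21 kb), also without overlap. Among all genes with a peak, 45.1% separated downward and 5.44% upward in the same way. In males, the ΔEcad lists lay below the Ecad lists at Id1 (−2.26 kb), Id2 (−2.33 kb), Id3 (−4.08 kb), Smad6 (−1.08 kb), Smad7 (−4.59 kb) and Tgfbi (−5.54 kb), as they did at 26.2% of genes. Male lists overlapped at Skil and at Id4, where the difference was 0.708 kb. Per Mb of list, the male groups also overlapped at Id2, Id3 and Smad7, and the female groups at Id3. The other separations named here were kept on that scale, where the share of all genes was not counted. Whether the difference by genotype itself differed between the sexes was not tested.

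Between the sexes, 5 female and 4 male lists, Skil alone passed among the 8 members, with 0.912 ± 0.584 kb (SD, n = 5) against 2.09 ± 0.749 kb (SD, n = 4), a difference of −1.17 kb (exact permutation p = 0.0317, adjusted p = 0.407 over all genes). Every female list lay below every male list at Skil, as at 4.33% of genes, and 11.1% of all genes were lower in female lists by the exact test. The separation was narrow, with 1.60 kb in the female Ecad line Ma_1014 and 1.63 kb in the male Ecad line Ma_1181. The lowest values were those of the female ΔEcad lists, between 0.364 and 0.588 kb. The highest male value was that of Ma_1007, and without both Ma_1007 and Ma_1069 the call was lost (−0.705 kb, exact permutation p = 0.143). By the scaled measure Skil was lower too (22.1 against 43.0 bp per Mb, exact permutation p = 0.0397), as were 6.39% of genes. Id3 differed by −3.85 kb (exact permutation p = 0.0794), and the exact permutation p of the other 6 members lay between 0.151 and 0.635. The median difference was −1.73 kb over the members and −0.575 kb over all genes, not matched for covered length. On promoter calls Smad6, the only member that could have passed Fisher's exact test, did not (p = 0.524), while 5.08% of the genes called in 1 to 8 lists passed. The 3 comparisons share lists, with the female ΔEcad lists in the first group of each, and are not independent of each other.

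Lines differed in how far all 9 genes together were covered. The summed covered length of the members was 59.2 and 52.2 kb in the male Ecad lines Ma_1007 and Ma_1181, 43.9 and 41.3 kb in the female Ecad lines Ma_1014 and Ma_1039, 34.4 and 37.3 kb in the male ΔEcad lines Ma_1062 and Ma_1456, and 26.6, 24.7 and 20.5 kb in the female ΔEcad lists Ma_1057, Ma_1064 and Ma_1069. Per Mb of list the order was less even, from 1282 bp in Ma_1181 to 625 bp in Ma_1064, with Ma_1456 (772 bp) just below Ma_1057 (778 bp). The number of elements per list ran from 20 in Ma_1181 and 19 in Ma_1007 through 15 in Ma_1014 and Ma_1456 and 12 in Ma_1039 and Ma_1062 to 11, 10 and 8 in the female ΔEcad lists Ma_1057, Ma_1064 and Ma_1069. Elements per list over all genes were not counted.

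Genes with a profile over the 9 lists most like that of a member were found by the mean absolute difference between covered lengths divided by their own mean, among genes over 1 Mb away with at least 2 kb on average. Nearest to Id1 was Gpsm1 (0.0888, against a median of 0.399 over the 8248 genes compared), then Azin1 and Ring1. For Id3 these were Shcbp1l (0.0855), Xylb and Zswim3. For Id4 the nearest was Dact2 (0.203, against a median of 0.661), with 0 kb in both female Ecad lists and between 3.42 and 7.005 kb in the 7 other lists, followed by Cd38 and Timm17a. For Smad6 they were Glis2 (0.287), Vasn and Kiz, of which Glis2 and Vasn lie on the same chromosome and share values in 5 lists. The exact pattern of promoter calls of Id1 and Id3, present in all lists but Ma_1069, was shared by 748 other genes, that of Id4 by 43 and that of Smad6 by 12.

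The rest of the pathway was read from 4 lists of 55 genes. Of 17 ligands and ligand antagonists, Tgfb3 alone had a promoter peak in all 9 lists, 6 had it in 1 to 8 lists and 10 in none. Over all protein-coding genes, 21.0% had it in all 9 lists and 47.1% in none. Tgfb1, the founding ligand, had a promoter peak in 5 of 6 other and 0 of 3 female ΔEcad lists (Fisher's exact test p = 0.0476). Its covered length was 5.08 and 2.94 kb in the male Ecad lines Ma_1007 and Ma_1181, 7.65 and 6.52 kb in the female Ecad lines Ma_1014 and Ma_1039, 4.76 and 5.34 kb in the male ΔEcad lines Ma_1062 and Ma_1456, and 0.942, 1.26 and 1.48 kb in the female ΔEcad lists of Ma_1057, Ma_1064 and Ma_1069. These lists lay below all others, as at 23.4% of genes, by −4.15 kb (exact permutation p = 0.0119, adjusted p = 0.0875). Fstl3, which encodes an activin antagonist, and Lefty1, which encodes a Nodal antagonist, were lower in the same comparison by −0.783 and −2.03 kb, from peaks away from their starts. All 3 were lower by the scaled measure too (exact permutation p = 0.0238 for each).

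All 13 receptor genes had a promoter peak in at least 1 list, and Acvr1, Acvr2a, Bambi, Bmpr1a, Bmpr2, Eng and Tgfbr2 in all 9. Of all protein-coding genes, 47.1% had it in no list and 21.0% in all 9. Tgfbr2, the type II TGF-β receptor, was covered over a longer length in female ΔEcad lists, with 13.5, 8.40 and 14.9 kb in Ma_1057, Ma_1064 and Ma_1069. The other lists had 5.66 and 6.05 kb (Ma_1007 and Ma_1181), 4.95 and 3.02 kb (Ma_1014 and Ma_1039) and 4.14 and 11.5 kb (Ma_1062 and Ma_1456), so that Ma_1456 overlapped with the female ΔEcad lists. The difference was 6.42 kb (exact permutation p = 0.0238, adjusted p = 0.119), with the same p by the scaled measure. The promoter of Tgfbr1, the type I partner, was called in 6 of 6 other and 0 of 3 female ΔEcad lists (Fisher's exact test p = 0.0119), and that of the co-receptor Tgfbr3 in 5 of 6 and 0 of 3 (Fisher's exact test p = 0.0476). Bambi, a decoy receptor, was lower in female ΔEcad lists by −1.52 kb (exact permutation p = 0.0119), a call lost by the scaled measure (exact permutation p = 0.226). Tgfbr1 (−4.32 kb, exact permutation p = 0.0238) and Eng, the co-receptor endoglin (−3.90 kb, exact permutation p = 0.00794), were lower in ΔEcad than in Ecad lists, also by the scaled measure (exact permutation p = 0.0317 and 0.00794).

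**Figure D5:**
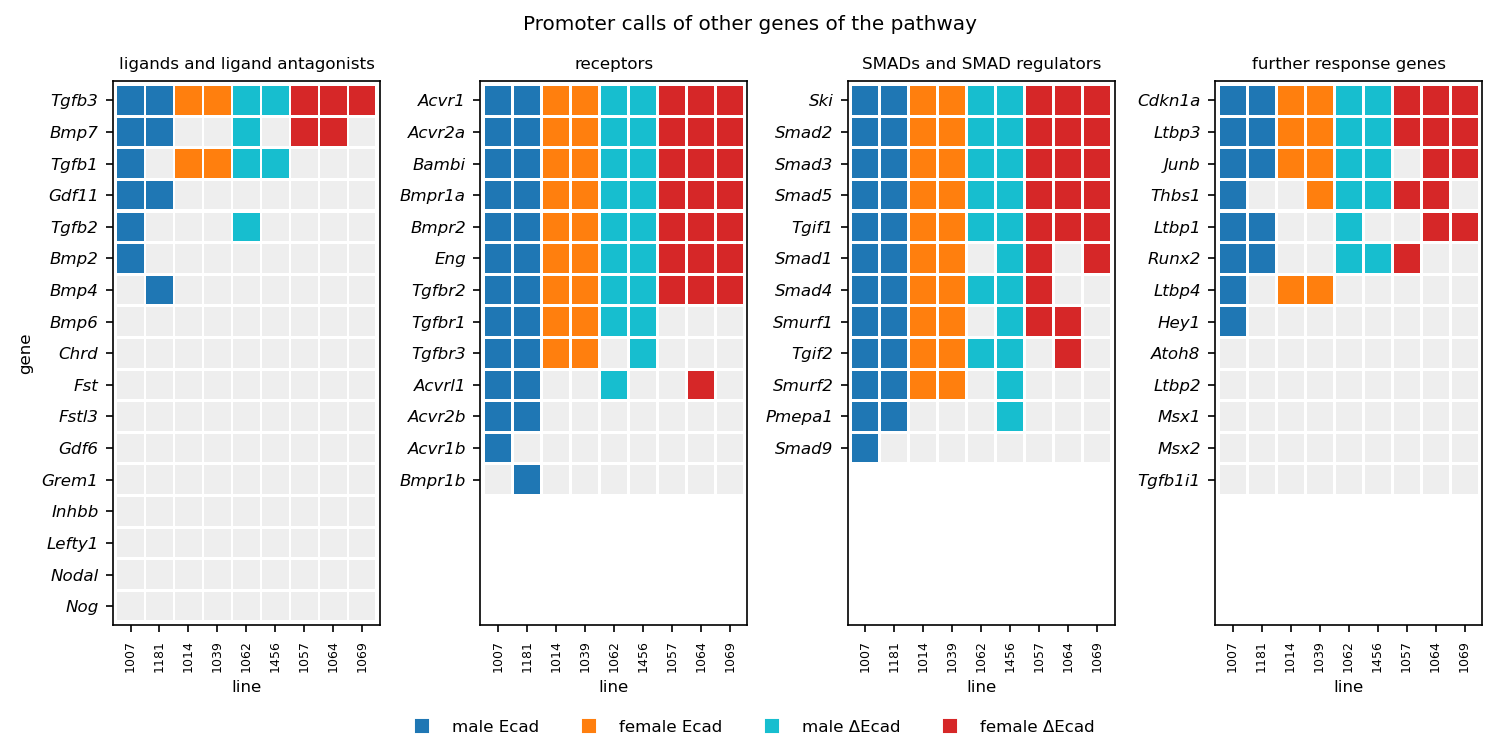
Promoter calls (coloured squares, by group of line) of 55 further genes of the pathway in 4 lists (panels), with genes as rows and the 9 lines as columns, where grey means no peak within 1 kb of a start. Tgfb1, Tgfbr1 and Tgfbr3 are called in no female ΔEcad line and in 5, 6 and 5 of the 6 other lines. Of 17 ligands and antagonists 10 are called nowhere, as are 47.1% of all protein-coding genes.

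Of 12 SMADs and SMAD regulators, Ski, Smad2, Smad3, Smad5 and Tgif1 had a promoter peak in all 9 lists and the other 7 in 1 to 8. Among all protein-coding genes the share was 21.0% in all 9 lists and 47.1% in none. Smad2, the TGF-β branch SMAD, was lower in female ΔEcad lists by −1.77 kb (exact permutation p = 0.0119). Between genotypes Smad2, Smad5, Smad9, Ski and Pmepa1 were lower in ΔEcad lists, among them Ski, the paralogue of Skil, by −10.5 kb (exact permutation p = 0.0238) and Smad9 by −1.01 kb (exact permutation p = 0.00794). By the scaled measure Ski (exact permutation p = 0.0159) and Smad9 (exact permutation p = 0.0317) stayed lower, while Smad2 (exact permutation p = 0.127), Smad5 (exact permutation p = 0.444) and Pmepa1 (exact permutation p = 0.0794) lost the call. The call of Smad2 in female ΔEcad lists was kept (exact permutation p = 0.0476). Pmepa1, a TGF-β induced inhibitor of SMAD signalling, had 10.1 and 16.8 kb in the male Ecad lines Ma_1007 and Ma_1181 and between 1.27 and 2.72 kb in the 7 other lines. Of 13 further response genes, Cdkn1a and Ltbp3 had a promoter peak in all 9 lists, 6 had it in 1 to 8 and 5 in none, beside the same shares of all genes. Junb, an immediate early gene, was lower in female ΔEcad lists, with 1.52, 1.35 and 1.86 kb in Ma_1057, Ma_1064 and Ma_1069 against 4.49 to 16.8 kb in the 6 other lists (−8.82 kb, exact permutation p = 0.0119). Atoh8, a BMP target, was lower in female ΔEcad lists by −2.05 kb (exact permutation p = 0.0238), as was Tgfb1i1 by −1.19 kb (exact permutation p = 0.0119). Ltbp4, which encodes a latent TGF-β binding protein, was lower in ΔEcad than in Ecad lists by −1.67 kb (exact permutation p = 0.00794), with a promoter peak in 3 of 4 Ecad and 0 of 5 ΔEcad lists. The calls of Junb, Atoh8, Tgfb1i1 and Ltbp4 were kept by the scaled measure (exact permutation p between 0.00794 and 0.0357). Runx2, a transcription factor of bone, had a promoter peak in 4 of 4 male and 1 of 5 female lists (Fisher's exact test p = 0.0476).

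Of the 55 genes, 49 had a peak in the window in at least 1 list and were tested, as were the genes behind the shares of all genes. Of these 49, 8 (16.3%) were lower and 1 higher in female ΔEcad lists at an unadjusted exact p under 0.05, beside 26.7% of all genes lower by the same rule. Between genotypes 9 (18.4%) were lower and 0 higher in ΔEcad lists, beside 17.7% of all genes. Between the sexes 1 (2.04%), Pmepa1, was lower in female lists, beside 11.1%. By the scaled measure 7 (14.3%) were lower and 2 higher in female ΔEcad lists, beside 14.6% of all genes lower, 6 (12.2%) were lower and 1 higher in ΔEcad lists, beside 8.09%, and 0 passed between the sexes. The genes higher by this measure were Tgfbr2 in both comparisons and, in female ΔEcad lists, Bmp6, which was named after its values were seen. Of the 25 genes with a promoter called in 1 to 8 lists, 4 (Tgfb1, Tgfbr1, Tgfbr3 and Smurf2) passed Fisher's exact test in female ΔEcad lists, 3 (Tgfbr3, Smurf2 and Ltbp4) between genotypes and 2 (Pmepa1 and Runx2) between the sexes. These are 16.0%, 12.0% and 8.0% of the 25, beside 14.1%, 9.48% and 5.08% of all genes called in 1 to 8 lists. Smurf2, which encodes a ubiquitin ligase for SMADs and receptors, was likewise named after its values were seen. Its promoter was called in 5 of the 6 other lists against 0 of 3 from female ΔEcad lines, and by genotype in 4 of 4 Ecad against 1 of 5 ΔEcad lists (Fisher's exact test p = 0.0476 for each).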

How the data were processed

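H3K27ac ChIP-seq peak lists of 9 lines were used, and 4 input libraries were not analysed here. Per the submitters' processing notes, Bowtie2 (2.4.5), MACS2 (2.2.7.1) and deepTools (3.5.1.0.0) were used with mm10. The caller's settings and control are not given in the sources used here. In each deposited list the authors gave a score, a fold enrichment (a linear ratio over background), a −log10 p and a −log10 q, and the other deposited column is the summit offset. Only positions and the −log10 q, as a rank within its own list, enter the results, and the fold was not compared between lists. The authors pooled libraries to a common target depth. Lists hold no counts, so the depth reached, and with it the precision of a peak, is unknown.

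The members, gene lists and tests were chosen with earlier results of these data known. Windows, promoters (1 kb) and starts came from GENCODE M21. Covered length was computed in Python 3.11.15 with numpy 2.4.6 and compared over lines by exact two-sided permutation tests, and promoter calls by Fisher's exact test (scipy 1.17.1), for all genes, with Benjamini-Hochberg adjustment. A gene was called lower or higher at an unadjusted exact p under 0.05. Genes of the pathway lists were named where such a p was reached, up to 5 a list by smallest p (1 gene of these lists is not reported here), and the 3 likest genes were named for each member called in 1 to 8 lists. The tests were checked on simulated lists. Replicate numbers follow deposition order and pair nothing. Promoter sequences came from RefSeq (GRCm38.p6), with 6 of 9 members matched. Alternatives were other windows, equal-length or stricter lists, scaling by list length, start rules, element rules and leaving out each line.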

Additional observations from a re-analysis of the deposited data

Results flagged for a closer look

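Of 40 sets of a member and a group of 4 to 6 lines, 4 held a line whose covered length stood apart from the others by Dixon's criterion, which chance alone meets in about 1 of 20 such sets. Skil covered 3.20 kb in Ma_1007, the longest list, against a next highest value of 1.63 kb among the Ecad lines and 1.83 kb among both the male lines and the 6 lines other than female ΔEcad, so that 3 of the 4 are the same value. Smad6 covered 2.74 kb in the female Ecad line Ma_1014 against a next highest 0.353 kb among the female lines. No cause of either value was tested.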

How the results depend on the processing

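Depth is unknown, so a missing peak cannot be told from a shallow list. The member calls were few and none passed adjustment over all genes. Of 160 alternatives to the 10 member differences called by covered length, 119 kept direction and side of the threshold, 41 kept direction alone and 0 reversed. Against the 6 other lines, Id1 and Id2 held in all 16 alternatives each (exact permutation p at most 0.0476), Skil in 15 (it was lost with 50 kb on each side), Id3 and Smad7 in 7. Between genotypes, Smad7 held in 15 of 16, Id2 in 14, Id1 in 11 and Id3 in 4. Apart from leaving out 1 line, which is given below, each of 4 alternatives gave 2 called members in place of 4. These were Id2 and Smad7 with the gene body alone or 50 kb on each side, Id1 (lower) and Id4 (higher, not called before) under scaling by list length, and Smad7 (lower) and Id4 (higher) without both Ma_1007 and Ma_1069 (chosen after seeing the data). Between the sexes, 50 kb on each side and the removal of both lines left 0 in place of 1. Requiring a peak over the start raised the members called by promoter from 0 to 1 in the female ΔEcad comparison (Id1) and in the genotype comparison (Skil). Leaving out 1 line gave 3 to 5 called members for female ΔEcad lines (3 without Ma_1007, Ma_1181, Ma_1039, Ma_1456 or Ma_1057), 2 to 4 between genotypes (2, Id2 and Smad7, without Ma_1014, and 3, Id2, Smad7 and a higher Id4, without Ma_1007, with Id3 kept only without Ma_1456) and 1 in every case between the sexes. Elements per list averaged 13.6, and 9.44 where peaks had to cover at least 50% of an element. The cause of these changes was not tested.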
